A study of Mus musculus with 12 samples.

Results

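Arrdc4 and the glucose-sensing transcription factor genes Mlx, Mlxip and Mlxipl were examined in whole mouse embryos from normal and diabetic pregnancies. The set was defined by 9 gene names, and every annotated probe of these genes with a detection p-value under 0.05 on at least 4 of 12 arrays was taken. The detection p-value compares a probe with the array's own negative controls, so a low value marks signal above background. Of the 9 genes, 4 had a probe in the platform annotation used here, with 10 probes in all. The other 5 genes, Txnip, Slc2a1, Slc2a2, Slc2a3 and Slc2a8, were not analysed here. The values below therefore cover no glucose transporter, and of the arrestin-domain genes of the set they cover Arrdc4 alone. Of the 10 probes, 5 passed, among 13876 passing probes of 32766 in the table. All 5 were detected on 12 of 12 arrays, so no probe passed through 1 group alone.

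The samples were whole embryos of the NOD strain at embryonic day 10.5. NOD mice are an inbred strain that develops autoimmune diabetes. The control group held 4 pools of RNA, each from 4 embryos of normal pregnancies. Another 4 pools, also of 4 embryos each, came from dams with a blood glucose above 250 mg/dL (diabetic pools). The third group held 4 single embryos with a neural tube defect from diabetic pregnancies (NTD embryos). The labels name no engineered allele. Diabetic dams were given 5 units of gonadotropin by injection before mating, and whether control dams were is not stated. Diabetes and the injection therefore cannot be told apart. The defect and the measurement of single embryos cannot be told apart either, since all other samples were pools. Each pool combined embryos of 4 pregnancies, while the labels do not say whether different samples shared a pregnancy or whether diabetic pools held embryos with defects, so p-values measure the spread between these samples.

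Mlxipl encodes ChREBP and Mlxip encodes MondoA, transcription factors that become active when glucose 6-phosphate accumulates in the cell. Both bind DNA as dimers with the protein of Mlx, at pairs of E-box-like sequences in the promoters of their target genes. Arrdc4 is a known target of this system. It encodes an alpha-arrestin, a protein of the family of TXNIP, and in cultured cells both proteins reduce glucose uptake. ChREBP is best known from liver and fat, where it drives genes of glycolysis and of fatty acid synthesis, while MondoA is known from muscle.

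The E-box core CACGTG, the letters that such dimers recognise, was searched in the RefSeq promoter windows of the 4 genes (build GRCm38.p6, from 250 bases before to 50 bases after the start site). All 4 genes matched a window in that table. The 2 promoters that follow are shown because Arrdc4 was the member that passed the test below and Mlx, whose promoter holds the same letters, did not. Capitals mark CACGTG. The Arrdc4 window is chr7:68749189-68749488, minus strand, and the Mlx window is chr11:101087040-101087339, plus strand, both written 5′ to 3′ along the gene.
Arrdc4: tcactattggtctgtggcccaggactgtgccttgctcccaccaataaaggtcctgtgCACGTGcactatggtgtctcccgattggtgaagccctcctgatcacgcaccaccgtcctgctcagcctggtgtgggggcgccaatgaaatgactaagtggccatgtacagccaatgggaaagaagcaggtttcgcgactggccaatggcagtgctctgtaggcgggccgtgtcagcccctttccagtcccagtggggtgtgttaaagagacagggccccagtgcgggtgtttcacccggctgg
Mlx: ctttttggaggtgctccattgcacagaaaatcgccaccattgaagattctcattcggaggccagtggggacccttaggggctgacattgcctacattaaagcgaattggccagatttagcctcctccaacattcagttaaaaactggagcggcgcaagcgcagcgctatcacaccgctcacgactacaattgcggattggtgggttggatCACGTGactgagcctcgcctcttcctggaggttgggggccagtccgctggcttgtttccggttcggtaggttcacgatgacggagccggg
The match begins at base 58 of the Arrdc4 window and at base 211 of the Mlx window. The same letters, which read alike on both strands, stood in 7.15% of 32851 promoter windows. Of the 2 windows of Mlxipl, 1 held CACGTG, at base 153, and the window of Mlxip held 0. A paired arrangement in the same direction, CACGNG followed after 5 bases by CACGNG, was searched on both strands. It was in 0 of these windows and in 0.0487% of all windows. Pairs with the later group reversed, CACGNG followed after 5 bases by CNCGTG, were not searched as a pattern. The 0 therefore does not show that these windows lack paired E-box-like sequences. A match describes letters and says nothing of binding, and the absence of a match speaks for these windows alone.

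Arrdc4 was higher in every embryo sample from a diabetic pregnancy than in every control pool. Its normalized log2 intensities were 8.51, 8.49, 8.47 and 8.51 in control pools 1 to 4. In diabetic pools 1 to 4 they were 8.92, 8.86, 8.91 and 8.98, and in NTD embryos 1 to 4 they were 8.98, 8.79, 9.19 and 9.02. The control pools lay close together and below all 8 other samples, while the diabetic pools and the NTD embryos overlapped. The same separation was present in the deposited intensities before any correction, which were 405 to 438 in control pools, 487 to 562 in diabetic pools and 471 to 590 in NTD embryos. Of all probes, 1.12% lay above all 4 control pools in all 8 samples from diabetic pregnancies, and Arrdc4 was the single member probe that did.

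**Figure D1:**
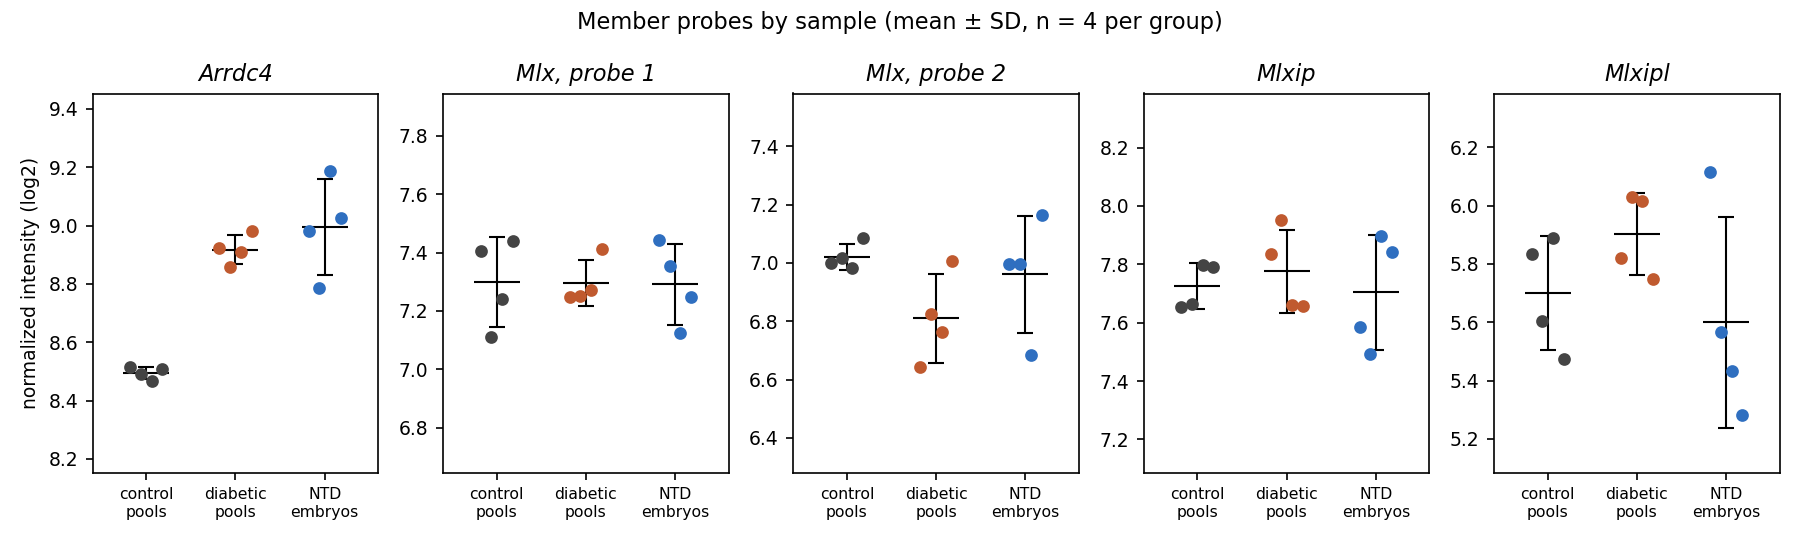
Normalized intensity (log2) of the 5 member probes in each sample, with the group mean and SD (n = 4 per group); every panel spans the same width on the log2 scale, and each is centred on its own mean because levels of different probes are not comparable. For Arrdc4 the control pools sit at 8.47 to 8.51, below all other samples, and for the other probes the groups overlap.

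Between diabetic and control pools, Arrdc4 rose by 0.42 ± 0.06 on the log2 scale (SE, n = 4 per group; limma adjusted p = 0.00674 over 13876 probes). This is a 1.34-fold rise with a 95% interval of 1.21 to 1.48. The group means were 8.92 ± 0.05 (SD, n = 4) and 8.49 ± 0.02 (SD, n = 4). It was the single member probe called in this comparison, 1 of 5, against 1.60% of all probes, or 0.504% in the upward direction. Groups did not overlap, with diabetic pools higher, for 1 of 5 member probes and 4.13% of all probes. At an unadjusted p under 0.05 there were 2 of 5 member probes and 13.0% of all probes. By size, Arrdc4 stood at place 38 of the 70 probes called higher, and by p-value at place 70 of all probes. In bulk RNA of whole embryos, a change in the number of cells that carry a transcript and a change in RNA per cell cannot be told apart.

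The rise of Arrdc4 in diabetic pools was 0.40 to 0.44 when any 1 of the 8 pools was left out, and each time it passed (limma adjusted p = 0.00954 to 0.0341). Without control pools 3 and 4, in which Kdm5d, a Y-linked gene that marks male tissue, was near background at 4.60 and 4.42, the difference was 0.42 and the adjusted p was 0.133. Kdm5d was at 8.19 and 8.28 in control pools 1 and 2, and at 7.97, 7.23, 8.17 and 8.97 in diabetic pools 1 to 4, so it was high in all diabetic pools and in 2 of 4 control pools. Its difference between these groups was 1.71 ± 0.82 (limma adjusted p = 0.408). In NTD embryos 1 to 4 it was at 9.18, 9.05, 4.59 and 4.48. The 2 probes of Eif2s3y, another Y-linked gene, were detected on at most 3 arrays, so the reading of male tissue rests on Kdm5d alone. The part of male tissue in the Arrdc4 values was not tested beyond the fit without control pools 3 and 4. When all 12 arrays shared 1 fit, the adjusted p from limma was 0.0507 for the diabetic pools. The platform annotation lists 1 probe for Arrdc4, so no other probe repeats its measurement.

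Between NTD embryos and control pools, the difference for Arrdc4 was 0.50 ± 0.09 (SE, n = 4 per group; limma adjusted p = 0.153), a 1.41-fold difference with a 95% interval of 1.23 to 1.63. It did not pass, although the groups did not overlap. In this comparison 0 of 5 member probes were called by limma, with 1 of 5 at an unadjusted p under 0.05. Of all probes, 0.0360% were called (0.0144% higher), 9.94% had an unadjusted p under 0.05 and 3.21% lay wholly above the control pools. The spread of Arrdc4 among single embryos, an SD of 0.16, was wider than the 0.05 among diabetic pools and the 0.02 among control pools. The difference was 0.57 without NTD embryo 2 and 0.44 without NTD embryo 3. With all 12 arrays in 1 fit it passed (limma adjusted p = 0.0361), and over 18 alternatives adjusted p ranged from 0.0361 to 0.999. Both comparisons use the same 4 control pools.

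The NTD embryos and the diabetic pools share the maternal condition, and between them Arrdc4 differed by 0.08 ± 0.10 (SE, n = 4 per group; limma adjusted p = 0.997). The 95% interval ran from -0.14 to 0.29, so differences of up to 1.23-fold upward or down to 0.909-fold lie within it. In this comparison limma called 0 of 5 member probes and 0% of all probes, with 0 of 5 members and 2.91% of all probes at an unadjusted p under 0.05. Of all probes, 1.14% lay wholly higher in NTD embryos, and 0 of 5 member probes did.

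**Figure D2:**
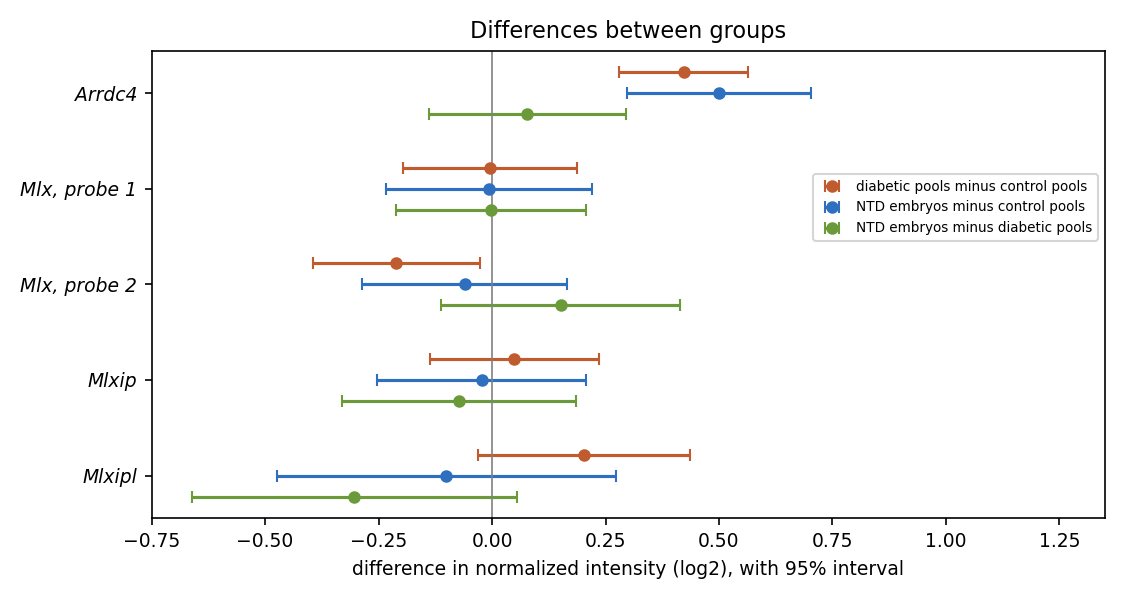
Differences in normalized intensity (log2, horizontal axis) of the 5 member probes in the 3 comparisons of groups; points are fitted differences and bars are 95% intervals from limma (n = 4 per group). The intervals of Arrdc4 against control pools, 0.28 to 0.56 and 0.30 to 0.70, lie above 0, and all intervals between NTD embryos and diabetic pools include 0.

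**Figure D3:**
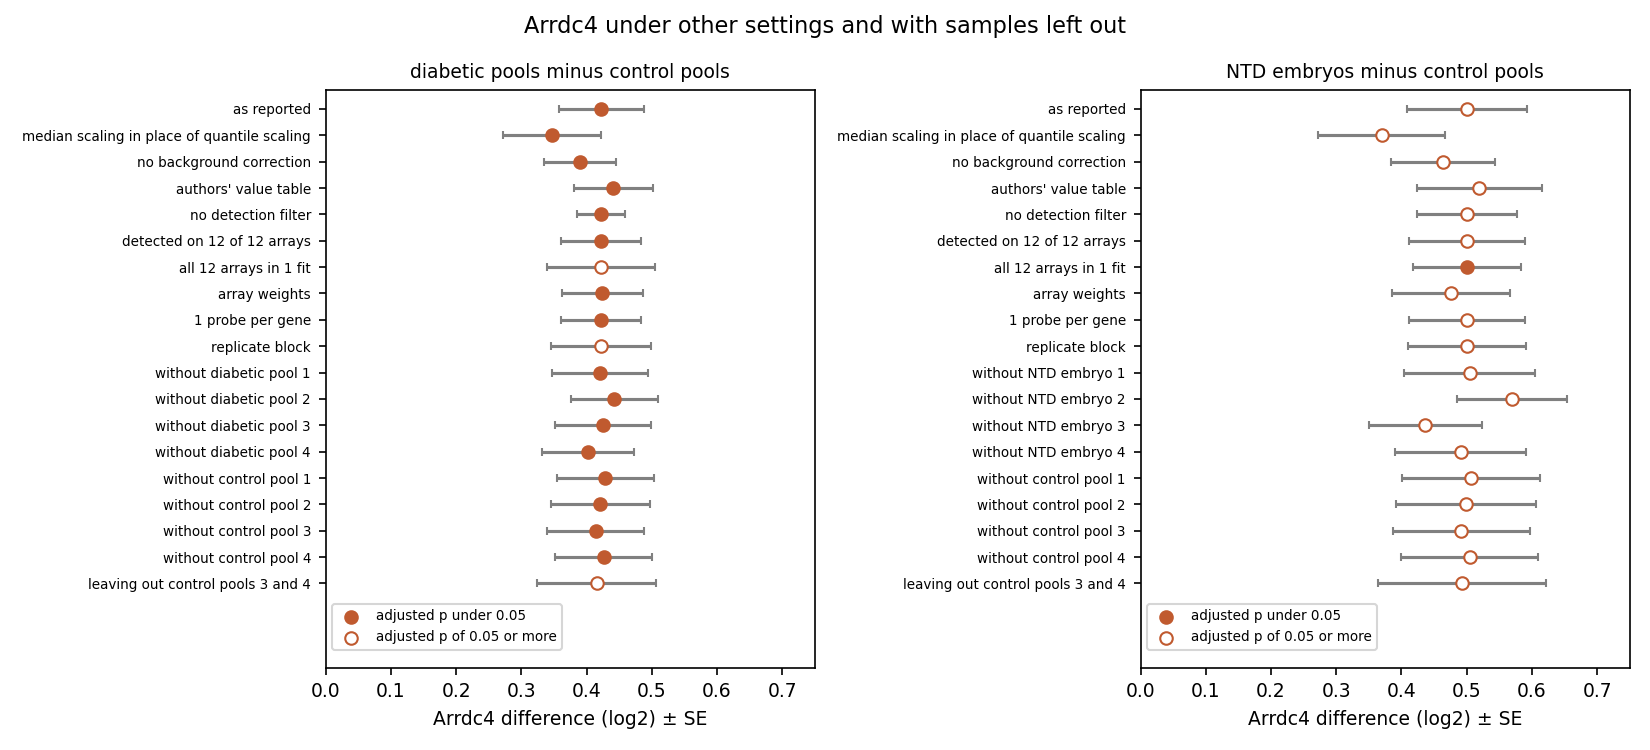
Arrdc4 difference (log2, with SE) from control pools under each alternative setting and with samples left out, for diabetic pools on the left and NTD embryos on the right; filled points have an adjusted p under 0.05. The differences stay between 0.35 and 0.44 in diabetic pools and between 0.37 and 0.57 in NTD embryos, while the adjusted p of each crosses the threshold under some settings.

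Cell type markers were examined beside Arrdc4. The labelled tissue, whole embryo, was borne out by detection on all 12 arrays of the primitive globin gene Hba-x, the atrial myosin gene Myl7, the motor neuron gene Isl1, the progenitor gene Nes and the yolk sac and liver gene Afp. Alb and Ins2, genes of liver and of insulin-producing cells, were each read by 1 probe, which was detected on 0 arrays. Apoa4, Kdr and Epb42, of the endoderm, endothelium and erythroid lists, were also detected on 0 arrays by any listed probe. The mean of 5 heart genes relative to control pools was -0.04 to 0.03 in control pools, -0.04 to 0.19 in diabetic pools and 0.11 to 0.63 in NTD embryos. In NTD embryo 3, which had the highest Arrdc4 value, this heart mean was the highest. In NTD embryos 1, 2 and 4 the heart mean was 0.11, 0.32 and 0.34, and Arrdc4 was 8.98, 8.79 and 9.02. The mean of 6 primitive erythroid genes was -0.14 to 0.11 in control pools, -0.25 to -0.04 in diabetic pools and -0.74 to 0.04 in NTD embryos. The lowest value was again in NTD embryo 3, and NTD embryos 1, 2 and 4 were at -0.25, 0.04 and -0.57. In both lists 0 genes were called in limma in any of the 3 comparisons, while in NTD embryos against control pools 4 of 5 heart genes and 3 of 6 erythroid genes had an unadjusted p under 0.05, against 712 of 7341 genes. Between diabetic and control pools these counts were 0 of 5 and 1 of 6, against 991 of 7341 genes. The erythroid gene was Hemgn, named after its value was seen, with -0.44 ± 0.10 (limma adjusted p = 0.0578). Its groups did not overlap, and the share of all probes wholly lower in diabetic pools was not counted. The counts of genes take the brightest probe of each gene. A further probe of Hbb-bh1 had -0.36 in diabetic pools (limma adjusted p = 0.0560), while its brightest probe had 0.01 and a further probe of Hbb-y had 0.02. The mean of 4 neuron genes was -0.07 to 0.09 in control pools, -0.20 to -0.05 in diabetic pools and -0.69 to 0.05 in NTD embryos. The lowest value was in NTD embryo 3, and NTD embryos 1, 2 and 4 were at -0.10, -0.37 and 0.05. By the brightest probe of each gene, 0 of these 4 genes were above 0 in either comparison with control pools. Of these probes limma called 0, with 1 at an unadjusted p under 0.05 in each comparison. Further probes of Dcx, Elavl3 and Elavl4 were at -0.16, 0.08 and 0.04 in diabetic pools and at -0.36, -0.22 and 0.03 in NTD embryos. The part of these cell types in the Arrdc4 values was not tested. The heart mean was 0.11, 0.19, -0.04 and 0.12 in diabetic pools 1 to 4, above all control pools in 3 of 4. Diabetic pool 2, with the highest heart mean of these pools, had the lowest Arrdc4 value among them.

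Of the glucose-sensing factors, none was called in any of the 3 comparisons by limma; at an unadjusted p under 0.05 there was 1, the second probe of Mlx between diabetic and control pools. Mlx, the shared dimer partner, was read by 2 detected probes that differed from each other. The first (ILMN_2620510) had values of 7.41, 7.11, 7.24 and 7.44 in control pools 1 to 4, 7.25, 7.25, 7.27 and 7.41 in diabetic pools, and 7.44, 7.35, 7.12 and 7.25 in NTD embryos. These 3 groups overlapped fully, and their means were 7.30, 7.29 and 7.29. The difference between diabetic and control pools was -0.0040 ± 0.088 (SE, n = 4 per group; limma adjusted p = 0.993), with a 95% interval of -0.20 to 0.19.

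The second Mlx probe (ILMN_2620517) had values of 6.998, 7.018, 6.984 and 7.085 in control pools 1 to 4. In diabetic pools these were 6.644, 6.826, 6.763 and 7.008, and in NTD embryos 6.998, 6.996, 6.685 and 7.165. Diabetic pools 1 to 3 lay below the control pools and diabetic pool 4 among them. The difference of diabetic from control pools was -0.21 ± 0.08 (SE, n = 4 per group; limma adjusted p = 0.294, unadjusted p = 0.0278), which did not pass. The NTD embryos differed from control pools by -0.06 ± 0.10 (limma adjusted p = 0.911). Over all 12 samples the probes of Mlx had a Pearson correlation of 0.42, as a description over arrays that share their scaling. A further probe of Mlx was detected on 0 of 12 arrays, with a lowest detection p of 0.0662, just outside the threshold.

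Mlxip, the gene of MondoA, was read by 1 detected probe (ILMN_2499862), with 7.65, 7.66, 7.80 and 7.79 in control pools 1 to 4. Its values were 7.83, 7.95, 7.66 and 7.66 in diabetic pools and 7.58, 7.49, 7.90 and 7.84 in NTD embryos. Diabetic pools 1 and 2 and NTD embryos 3 and 4 were the high samples, and the groups overlapped. The difference was 0.05 ± 0.09 between diabetic and control pools (SE, n = 4 per group; limma adjusted p = 0.878), with a 95% interval of -0.14 to 0.24. It was -0.02 ± 0.10 between NTD embryos and control pools (adjusted p = 0.980). The 4 other probes annotated to Mlxip were detected on 0 of 12 arrays, with a lowest detection p of 0.130, and give no value. The files do not pair the probes with positions in the gene.

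Mlxipl, the gene of ChREBP, was the dimmest member and lay near background, with deposited intensities of 66.9 to 99.6 and a highest detection p of 0.0299, just inside the threshold. Its log2 values were 5.83, 5.60, 5.89 and 5.47 in control pools 1 to 4, 5.82, 6.03, 6.02 and 5.75 in diabetic pools, and 6.11, 5.57, 5.43 and 5.28 in NTD embryos. NTD embryo 1 had the highest value of all samples and NTD embryo 4 the lowest. The SD was 0.36 among NTD embryos against 0.20 among control pools and 0.14 among diabetic pools. The difference was 0.20 ± 0.11 between diabetic and control pools (SE, n = 4 per group; limma adjusted p = 0.466). It was -0.10 ± 0.17 between NTD embryos and control pools (adjusted p = 0.910) and -0.30 ± 0.16 between NTD embryos and diabetic pools (adjusted p = 0.997). The 95% intervals were -0.03 to 0.44, -0.47 to 0.27 and -0.66 to 0.06. The difference between diabetic and control pools was 0.13 without control pool 4 and 0.12 with no background correction, and it did not pass under either. Over the 12 samples, Arrdc4 had Pearson correlations of -0.13 and -0.42 with the Mlx probes, 0.20 with Mlxip and -0.07 with Mlxipl, which is a description of arrays that share their scaling.

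The genes most like Arrdc4 over the 12 samples, among 7340 others, were Col9a3, a collagen gene of cartilage (Pearson r = 0.96, Spearman rho = 0.97), and the keratin gene Krt23 (r = 0.95, rho = 0.91). Next came B4gat1 (r = 0.94), which encodes a glycosyltransferase of dystroglycan, Anp32a (r = 0.93), which encodes a nuclear acidic phosphoprotein, and the natriuretic peptide gene Nppb (r = 0.92), expressed in the heart. These correlations hold the difference between groups within them. After subtraction of group means they were 0.83 for Col9a3, 0.89 for Krt23, 0.64 for B4gat1, 0.67 for Anp32a and 0.80 for Nppb. Of these 5 genes, Krt23 passed between diabetic and control pools (0.37, limma adjusted p = 0.0325), Col9a3 (0.32) and Nppb (0.35) did not pass at adjusted p of 0.0699 and 0.0811, and none passed between NTD embryos and control pools. The 5 genes were picked by their correlation with Arrdc4 over these same samples. Their differences between groups and their correlations after subtraction therefore follow in part from that choice and are not separate results.

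Other genes of the pathway were taken from lists. With the brightest probe standing for each gene, 36 genes of 6 lists were measured, and limma called 0 of them in any comparison, against 1.70% of 7341 genes between diabetic and control pools, 0.0681% between NTD embryos and control pools and 0% between NTD embryos and diabetic pools. The relatives of Arrdc4 with values were the alpha-arrestin gene Arrdc2 and the beta-arrestin genes Arrb1 and Arrb2. Between diabetic and control pools, Arrdc2 differed by 0.15 ± 0.07 and Arrb2 by 0.19 ± 0.07 (limma with 4 samples per group and SE, adjusted p = 0.367 and 0.290). Both lay wholly higher in diabetic pools, as did 4.13% of all probes. Arrb1 differed by -0.02 ± 0.15, with further probes at 0.10 and 0.13. At an unadjusted p under 0.05 there were 2 of these 3 genes, against 991 of 7341 genes. Between NTD embryos and control pools the differences were 0.22 ± 0.10, 0.20 ± 0.09 and -0.23 ± 0.14 in the same order, with 0 passing. Each of these values lay nearer to 0 than that of Arrdc4 in the same comparison, and the difference between genes was not tested.

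Further known or proposed targets of ChREBP and MondoA were measured for 10 of 21 genes. Between diabetic and control pools 0 were called and 3 had an unadjusted p under 0.05, 9 of 10 values were above 0 and the median was 0.12. Over all 7341 genes, 991 had an unadjusted p under 0.05, 3924 were above 0 and the median was 0.01. Gpam, which encodes the first enzyme of glycerolipid synthesis, had values of 5.57, 5.54, 5.77 and 5.72 in control pools 1 to 4 and of 6.09, 5.80, 6.05 and 6.07 in diabetic pools. Its difference of 0.35 ± 0.09 did not pass (limma adjusted p = 0.0846). In NTD embryos, Gpam was 5.61, 5.64, 5.95 and 5.74, and it differed from diabetic pools by -0.26 ± 0.11 (adjusted p = 0.997). The median of the list between NTD embryos and diabetic pools was 0.01, with 5 of 10 above 0. Bhlhe40, which encodes a basic helix-loop-helix repressor, differed by 0.30 ± 0.08 in diabetic pools (adjusted p = 0.107) and by 0.58 ± 0.15 in NTD embryos (adjusted p = 0.228), where embryo 3 had 8.00 and the other NTD embryos 7.24 to 7.52. In both comparisons all samples lay above the control pools, at 6.88 to 6.96. Of all probes, 4.13% lay wholly higher in diabetic pools and 3.21% in NTD embryos. Tkfc, which encodes a triokinase of fructose metabolism, differed by 0.18 ± 0.07 in diabetic pools (adjusted p = 0.315), and the lipogenic genes Fasn and Acly by 0.15 ± 0.11 and 0.10 ± 0.07. In NTD embryos against control pools, 9 of 10 values were above 0 with a median of 0.10, against 3827 of 7341 genes and a median of 0.0062. Here Gpd1, a glycerol phosphate dehydrogenase gene detected on 4 of 12 arrays, had 0.37 ± 0.12 (adjusted p = 0.321) and the elongase gene Elovl6 0.19 ± 0.08 (adjusted p = 0.451).

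Glycolysis, which breaks glucose down after uptake, was measured for 9 of 26 genes. Between diabetic and control pools the median was 0.11, with 7 of 9 above 0. Over all genes the median was 0.01, with 3924 of 7341 above 0. At an unadjusted p under 0.05 there were 3 of 9, against 991 of 7341 genes. The enolase gene Eno2 had 6.22, 6.62, 6.61 and 6.37 in control pools 1 to 4 and 7.23, 7.05, 6.77 and 6.87 in diabetic pools. Diabetic pools lay wholly higher, as they did for 4.13% of all probes. The difference was 0.52 ± 0.12 (SE, n = 4 per group, limma adjusted p = 0.0547). With 1 probe per gene in the fit, the limma adjusted p was 0.0465. The aldolase gene Aldoc had 0.37 ± 0.10 and the enolase gene Eno3 0.19 ± 0.08 (limma adjusted p = 0.109 and 0.326), both also without overlap. In NTD embryos against control pools the median was 0.22, with 8 of 9 above 0. Over all genes these were 0.0062 and 3827 of 7341. At an unadjusted p under 0.05 there were 4 of 9, against 712 of 7341. Aldoa had 0.29 ± 0.09 and Eno3 0.22 ± 0.09 (limma adjusted p = 0.339 and 0.466). Both lay wholly above the control pools, as did Aldoc and 3.21% of all probes. Aldoc had 0.60 ± 0.19 and Eno2 0.64 ± 0.26 (limma adjusted p = 0.313 and 0.437). Embryo 3 was the highest for Aldoc and Eno2, at 7.69 and 7.96, against 6.68 to 6.88 and 6.47 to 7.07 in the other NTD embryos. The same embryo had the highest Arrdc4 value. In NTD embryos 1, 2 and 4, Aldoc was 6.68, 6.88 and 6.81, and Eno2 was 7.07, 6.88 and 6.47. Arrdc4 was 8.98, 8.79 and 9.02 in those embryos.

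The dimerization network of MAX and MYC, to which MLX is related, was measured for 9 of 10 genes, with a median of -0.0042 in diabetic pools and -0.03 in NTD embryos. In diabetic against control pools the smallest p-values among brightest probes belonged to Mycl (0.20 ± 0.09, limma adjusted p = 0.352) and to Mxd1, detected on 4 of 12 arrays (-0.22 ± 0.12, adjusted p = 0.480). A further probe of Mga had 0.33 (limma adjusted p = 0.181), where its brightest probe had 0.10 (adjusted p = 0.618). Myc itself had -0.23 ± 0.15 (adjusted p = 0.555). Of the hexosamine pathway, which uses glucose to modify proteins with O-GlcNAc, 4 of 7 genes were measured. The transferase gene Ogt differed by -0.19 ± 0.08 in diabetic pools (adjusted p = 0.290), with further probes at -0.14 and -0.17, and the hydrolase gene Oga by -0.40 ± 0.15 in NTD embryos (adjusted p = 0.394), where a further probe had 0.33. Of the thioredoxin system 1 of 13 genes was measured, the thioredoxin reductase gene Txnrd2, with 0.15 ± 0.08 in diabetic pools (adjusted p = 0.475) and 0.02 ± 0.09 in NTD embryos.

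**Figure D4:**
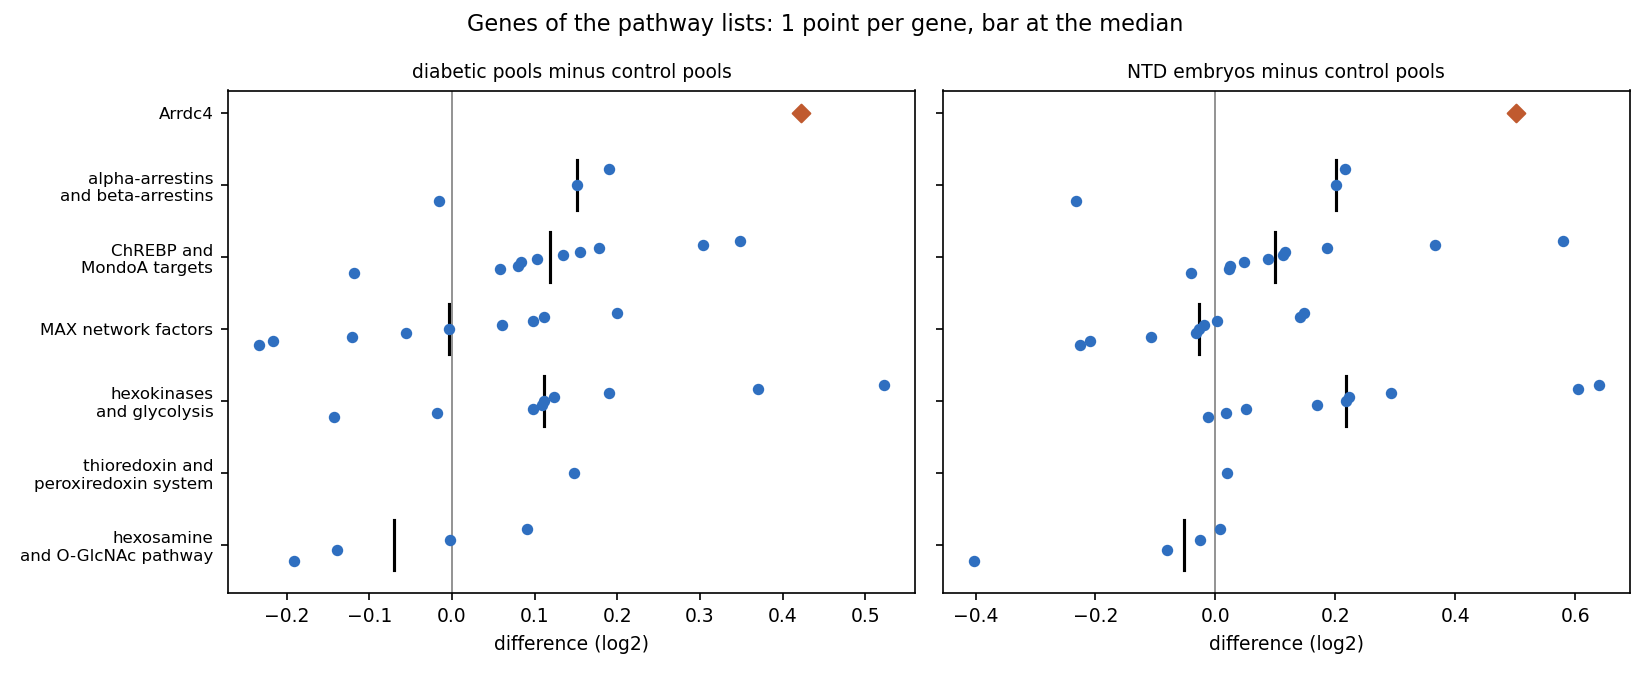
Differences from control pools (log2, horizontal axes) of the 36 measured genes of 6 pathway lists, 1 point per gene with a bar at the median of each list of more than 1 gene, for diabetic pools on the left and NTD embryos on the right; the diamond is Arrdc4. Medians of ChREBP and MondoA targets lie at 0.12 and 0.10 and those of glycolysis at 0.11 and 0.22, and no list gene passed the test.

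Detected probes numbered 12546 to 13736 per array, and the member probes were read by 20 to 60 beads each. The number of arrays limits the precision of every value given. Across all probes, 222 were called between diabetic and control pools, 70 higher and 152 lower, and 5 between NTD embryos and control pools, 2 higher and 3 lower. When arrays were scaled to their medians instead, the splits were 36 higher and 249 lower, and 0 higher and 7 lower. The first count was 111 and 129 without diabetic pools 1 and 3, and 100, 110 and 133 without control pools 2, 3 and 4. The second was 62 and 61 without NTD embryos 1 and 4, and 1 when any 1 of the other samples was left out.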

How the data were processed

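Per the labels' protocols, 200 ng of purified, DNase-treated RNA per sample was turned into biotin-labelled RNA for Illumina bead arrays. GenomeStudio is named in the submitters' processing notes, and its version is not given in the sources used here. Per the file headers, the authors deposited an average intensity per probe and array without correction, with its standard error over beads, its count of beads and a detection p-value. The deposited value table holds intensities on a linear scale, from -18.6 upward, with column medians of 8.44 to 8.70. Within each array its ranks equalled those of the uncorrected table (Spearman's rho of 1), and how it was corrected and scaled is not given in the sources used here. An alternative used its log2 values after raising those below 1 to 1.

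With limma 3.58.1 in R 4.3.3, neqc corrected the background from the detection p-values (offset of 16) and gave quantile-normalized log2 values. The platform annotation gave, for 32766 probes, 23340 with 1 symbol, 13 with several and 9413 not listed. Symbols were updated through Entrez identifiers. Each comparison was fitted with lmFit and eBayes on its 8 arrays, two-sided, with Benjamini-Hochberg adjustment over all 13876 detected probes and a threshold of 0.05. The fit was tested on simulated data with independent noise for each probe. Of probes changed by 0.4 on the log2 scale, 49% were recovered between diabetic and control pools. Recovery was 28% between NTD embryos and control pools and 19% between NTD embryos and diabetic pools. For changes of 1, recovery was 98%, 94% and 87% in the same order, and 6.37%, 4.69% and 3.64% of calls were false. A probe that did not pass can therefore still differ by 0.4. The members, lists and alternatives were chosen with earlier results of these data known. Named genes were all members, a selection of the pathway list and marker genes and the 5 genes most correlated with Arrdc4. The list genes named are not in every list and comparison those with the smallest p-values. The repeat of that search for Txnip was not made, because Txnip was not analysed here. The lists of further glucose transporters (11 genes) and of placenta (7 genes) had 0 listed probes. Symbols and promoters came from RefSeq tables of GRCm38.p6.

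Marker lists of hepatic and visceral endoderm (8 genes measured, medians of 0.02 in diabetic pools and -0.0051 in NTD embryos against control pools), pancreas (2, -0.04 and -0.21), endothelium (2, 0.10 and -0.06), neurons (4, -0.15 and -0.24) and neural progenitors (1, -0.07 and -0.09) held 0 genes called by limma in any comparison, as did those in the text. The pancreas median in diabetic pools lies between Gcg at -0.53 (groups not overlapping, limma adjusted p = 0.0648) and Nkx6-1 at 0.45 (adjusted p = 0.0721). The share of all probes wholly lower in diabetic pools was not counted. At an unadjusted p under 0.05 there were 1, 2, 0, 1 and 0 genes in diabetic pools and 0, 0, 0, 1 and 0 in NTD embryos.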

Additional observations from a re-analysis of the deposited data

Results flagged for a closer look

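The first Mlx probe (ILMN_2620510) was at 7.41 in diabetic pool 4, apart from the other diabetic pools at 7.25 to 7.27. The gap to the nearest pool was 0.855 of the group's range. Of 15 groups of 4 samples examined among the 5 member probes, this was the 1 with a sample so far from the rest, and chance gives about 1 such group in 20. The second Mlx probe was also highest in diabetic pool 4 among the diabetic pools, at 7.01.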

How the results depend on the processing

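The rise of Arrdc4 in diabetic pools kept its direction under all 18 alternatives (0.35 to 0.44) and passed in 15; the member count was 1 in each of the leave-one-out fits, and 0 with all 12 arrays in 1 fit, without control pools 3 and 4 and with the replicate number as a block. The replicate block gave a limma adjusted p of 0.0635 for Arrdc4 and 96 calls over all probes in that comparison, and 1 call between NTD embryos and control pools. Same-numbered samples of the diabetic and control pools deviated together with correlations of -0.25 to 0.07. For NTD embryos these were 0.0028 to 0.26 with control pools and -0.19 to 0.28 with diabetic pools. NTD embryos 3 and 4 matched best with the control pool of their own number, and NTD embryo 2 with the diabetic pool of its own number. With 4 samples per group these values cannot decide whether samples are paired. The labels do not say that equal numbers pair samples, so the main fits did not treat them as pairs. Fewer samples enter the fit without control pools 3 and 4; the cause of the other changes was not tested. In NTD embryos against control pools the member count was 1 with all 12 arrays in 1 fit and 0 in the leave-one-out fits.

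Calls over all probes between diabetic and control pools numbered 132 from the authors' value table, 40 with all 12 arrays in 1 fit, 52 without control pools 3 and 4 and 100 to 281 with 1 sample left out. Between NTD embryos and control pools they numbered 1 from the authors' value table, 1 with no detection filter, 2 for probes detected on 12 of 12 arrays, 24 with all 12 arrays in 1 fit, 54 with array weights, 0 without control pools 3 and 4 and 1 to 62 with 1 sample left out. Pathway list calls between diabetic and control pools were 1 without background correction (Eno2), 3 with array weights (Bhlhe40, Gpam and Eno2), 1 with 1 probe per gene (Eno2) and 0 to 1 with 1 sample left out (Gpam without diabetic pool 2). Median scaling moved the median of all probes by -0.07 in diabetic pools and by -0.11 in NTD embryos, against which Arrdc4 stood at 0.35 and 0.37.

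Values of probes that did not pass changed sign near 0. With median scaling, Mlxip was at -0.027 in diabetic pools. With array weights the first Mlx probe was at 0.0078 in diabetic pools, 0.0082 in NTD embryos against control pools and 0.0068 against diabetic pools. Without control pools 3 and 4 it was at 0.037 and 0.034, and Mlxip at 0.045 in NTD embryos. With 1 sample left out, the first Mlx probe ranged from -0.067 to 0.043, from -0.070 to 0.050 and from -0.054 to 0.053 in the 3 comparisons, and Mlxip from -0.0092 to 0.088 in diabetic pools and from -0.087 to 0.048 in NTD embryos. In NTD embryos against control pools the second Mlx probe ranged from -0.13 to 0.032 and Mlxipl from -0.27 to 0.0052. No chip or scan is named in the files, so the chip as a block was not run.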
